A study of Fragaria x ananassa with 3 samples.

Results

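Among the miRNAs of stored strawberry fruit, miR390 and miR828 are the families known from other plants as starters of trans-acting siRNA (tasiRNA) production. They were found by the family number in the miRNA name, and 2 of the 1310 distinct names in the table qualified: mdm-miR390a and aly-miR828-3p_R-1_1ss5GA. A further 6 names of new candidates hold the same digits only as part of a serial number and were not taken. Fruits of Fragaria ananassa, cultivar Zhangji, picked at commercial maturity, were stored at 20 °C and about 85% relative humidity, and small RNAs were sequenced in 1 library after 0 h and in 1 library after 24 h. A degradome, which captures the cut ends of mRNAs, came from 1 library of both fruits mixed. The table lists 3006293 raw reads at 0 h and 2998588 at 24 h over all names. Of these names, 85 belong to known miRNA families, here called known names, and 1225 are new candidates. The known names include strands of reported hairpins that the paper describes as detected there for the first time. Without replicates no test across samples was possible, and all intervals are exact 95% counting intervals, which leave out the variation between fruits and between libraries. The table holds no marker genes, so the labelled tissue was not checked. In such bulk samples, fewer cells of a type and less RNA per cell cannot be told apart.

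In Arabidopsis, miR390 is loaded into the Argonaute protein AGO7 and directs it to the noncoding TAS3 transcripts. RDR6 and SGS3 then copy the cut transcripts into double-stranded RNA, and DCL4 dices this into phased siRNAs, of which the tasiARFs cleave the mRNAs of the auxin response factors ARF3 and ARF4 and so set the timing of development and the polarity of organs. The guide strand of miR828, which is the 5p strand, cuts the TAS4 transcript and MYB113 in the same plant, and a siRNA from TAS4 targets MYB genes that switch on the synthesis of anthocyanins, the red pigments that also colour ripe strawberries. The strand of miR828 listed for the fruit is the other one, the 3p strand, so its reads do not measure the guide.

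Both listed strands were 21 nt long and began with adenine, the first base that AGO7 reads in miR390. Of the 85 known names, 15 began with adenine, which is 17.6%, against 43 with thymine as the table writes uridine. Over all 1310 names, most of them new candidates, adenine was the first base of 619, or 47.3%, so it was not rare in the table as a whole. The mature sequences are shown with bases 2 to 8, the seed, in capitals, because they identify the strand that was counted:
mdm-miR390a: aAGCTCAGgagggatagcgcc
aly-miR828-3p_R-1_1ss5GA: aGATACTCatttgagcaagca
The 2 seeds differ from each other, and 0 of the other 1309 names carried either of them. With at least 17 matching bases required in an ungapped alignment, 0 of the other names were relatives of either sequence, on the same strand or as its reverse complement. The closest reached 13 matches in each case. Neither family was therefore spread over several names, and the counts below are those of single sequences.

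The listed miR390 was identical over all 21 bases to mdm-miR390a, the apple sequence after which it is named. The miR828 strand matched aly-miR828-3p of Arabidopsis lyrata at 20 of 21 aligned bases. It differed by the substitution G5A, counted from the 5′ end of the reference strand, and lacked the last base of that strand, which has 22 nt. Both sequences lay unchanged in their predicted hairpins from the genome of the woodland strawberry, Fragaria vesca. This was the case for 70 of the 85 known names, while 15 matched none of their listed hairpins exactly.

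The hairpins are printed with the counted strand in capitals, to show on which arm it lies. That of miR390 lies in scf0513177:2959414-2959674 and that of miR828 in scf0513190:1064147-1064407 of the Fragaria vesca genome 1.0, both on the plus strand. Each interval has 261 bases and the hairpin given for it is shorter, with 121 and 140 nt. What the genome annotation places at these positions was not analysed here.
hairpin of mdm-miR390a: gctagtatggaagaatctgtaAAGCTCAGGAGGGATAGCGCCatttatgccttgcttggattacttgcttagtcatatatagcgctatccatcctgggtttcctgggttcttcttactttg
hairpin of aly-miR828-3p_R-1_1ss5GA: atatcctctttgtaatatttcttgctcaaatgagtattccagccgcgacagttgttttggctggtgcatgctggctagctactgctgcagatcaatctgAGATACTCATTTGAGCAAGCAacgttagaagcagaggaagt
The capitals of miR390 stand on the 5p arm, from base 22 to base 42, and those of miR828 on the 3p arm, from base 100 to base 120.

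For neither hairpin was the second strand among the listed miRNAs. The opposite strands are given because the one of miR828 is on the arm of the guide known from Arabidopsis:
opposite strand of miR390: cgctatccatcctgggtttcc
opposite strand of miR828: tcttgctcaaatgagtattcca
An exact search found 0 of the 1310 names for either of them. The opposite strand of miR828 has 22 nt, a length known in other plants for miRNAs that start phased siRNAs. It matched the miR828 hairpin of Arabidopsis lyrata at 21 of 22 bases, with the substitution T8C counted from its own 5′ end. That a strand has no entry does not show that it had no reads, since only reported miRNAs are in the table. Of the 71 known precursors, 25 had both arms listed, 27 only the 5p arm, as miR390, and 19 only the 3p arm, as miR828.

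A fold computed with RNAfold placed each counted strand in a stem opposite its partner. In the miR390 hairpin, 19 of the 21 mature bases were paired, 18 of them to the opposite strand and 2 as G:U pairs, and bases 11 and 21 were unpaired. In the miR828 hairpin, 19 of the 21 bases were paired as well, 18 of them to the opposite strand and 1 as a G:U pair, with bases 1 and 20 unpaired. The minimum free energies were -53.9 kcal/mol for miR390 and -57.7 kcal/mol for miR828, with GC contents of 43.8% and 43.6%. The strands of miR390 are 40 bases apart and those of miR828 58 bases, and in the prediction the longer stretch of miR828 folds into small side stems. The first of these takes in bases 39 to 41 of the hairpin, the end of the opposite strand, which are thus not paired to the counted strand. These are computed structures and were not measured in the fruit.

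**Figure D1:**
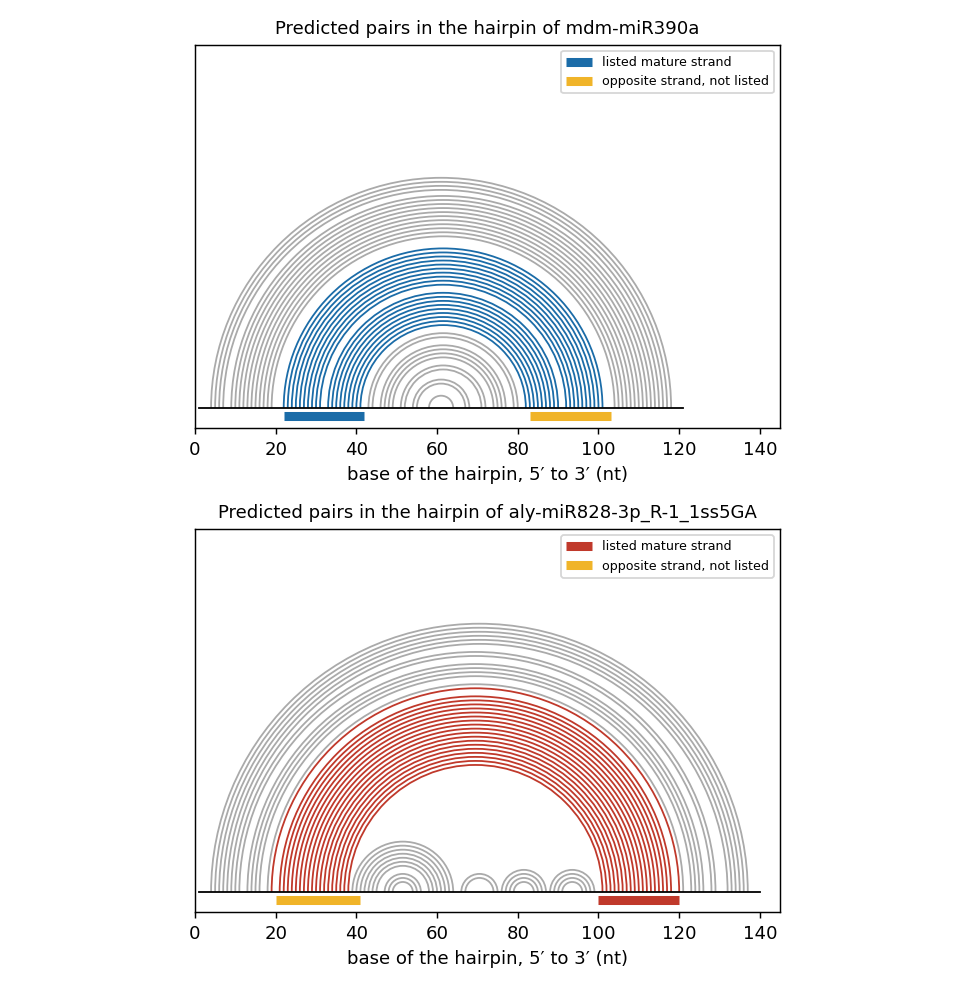
Arcs join the bases predicted to pair in the hairpins of miR390 (121 nt) and miR828 (140 nt), with the position in nt on the horizontal axis, the arcs of the counted strand in colour and the bars marking the 2 strands. In both hairpins 19 of the 21 bases of the counted strand are paired, with base 11 of miR390 unpaired in the middle of the stem.

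The 2 hairpins are on different scaffolds and neither had another known miRNA close by. On the scaffold of miR828, the nearest known hairpin starts 87596 bases away on the same strand and carries csi-miR479_1ss12TG and csi-miR171b_1ss10TC. The former had 4 raw reads at 0 h (Poisson interval 1.09 to 10.2) and 15 at 24 h (8.40 to 24.7). These intervals overlap, but the interval of its fold between the libraries, given below, lay wholly above equal values. In each library csi-miR171b_1ss10TC had 21 raw reads. On the scaffold of miR390, the nearest was mdm-miR2111a_R-1, 1339867 bases away on the minus strand, with 29 and 22 raw reads.

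After storage, one strand had fewer reads and the other more. With 246 raw reads at 0 h (Poisson interval 216 to 279) and 78 fewer at 24 h (interval of that count 144 to 195), mdm-miR390a was lower in the later library. The 3p strand of miR828 was counted 13 times at 0 h (6.92 to 22.2) and 66 times at 24 h (51.0 to 84.0). For each of them the intervals of the 2 libraries did not overlap, and in both libraries miR390 stood above miR828. How many of all names had such intervals was not counted. The related interval of the fold, given below, lay wholly above equal values for 9.46% of the 1248 names compared. It lay wholly below for 7.21%.

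**Figure D2:**
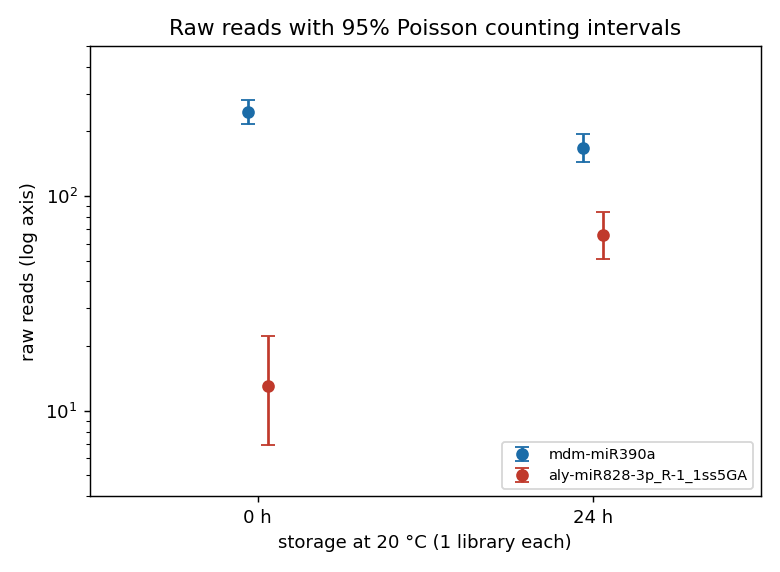
Raw reads of mdm-miR390a and aly-miR828-3p_R-1_1ss5GA on a log axis in the single libraries of 0 h and 24 h, with bars for the 95% Poisson counting interval. The points of miR390 go from 246 down by 78 reads and those of miR828 from 13 to 66, and no 2 bars overlap in height.

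Both were minor sequences of the fruit. Per 1000000 listed miRNA reads, mdm-miR390a had 81.8 at 0 h and 56.0 at 24 h, and the miR828 strand 4.32 and 22.0. By raw reads miR390 ranked 101 of 1310 names at 0 h and 136 at 24 h, and among the 85 known names 33 and 38. The miR828 strand moved from rank 952 of all names to 292, and from 75 to 54 among the known ones. At 0 h it was thus close to the end of the known names, and at 24 h in their lower middle.

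Among the 31 known families, miR390 ranked 18 at 0 h, between the sulfate-responsive miR395 (303 reads) and the phosphate-responsive miR399 (231 reads). The interval of miR390, 216 to 279, overlapped with those of miR395, 270 to 339, and miR399, 202 to 263. Overlap of such intervals does not by itself show that counts are equal, and the order of the families was not tested. At 24 h it ranked 21, between miR162, which targets DCL1 in Arabidopsis, with 203 reads (176 to 233) and miR397, which targets laccases, with 154 reads (131 to 180). Its own interval, 144 to 195, overlapped with both. The place of miR828 changed from 30 to 26 of the 31 families. At 0 h it stood between miR2118 with 16 reads (9.15 to 26.0) and miR479 with 4 reads (1.09 to 10.2), and both intervals overlapped with its own. At 24 h its neighbours were miR7125 with 103 reads (84.1 to 125), whose interval began just above the end of its own, and miR530 with 56 reads (42.3 to 72.7), which overlapped.

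The comparison of the storage times used the reads as normalized by the authors, for the 1248 names that reached 10 raw reads in 1 of the libraries or both, with a log2 fold beyond 1 or -1 as the threshold. The normalized reads of mdm-miR390a were 225 at 0 h and 142 at 24 h, which is 0.631 times the value of 0 h (conditional binomial interval 0.515 to 0.770, log2 fold -0.66). It did not pass the 2-fold threshold, which 3.69% of the names passed on the lower side. Its whole interval lay under equal values, as did that of 7.21% of the names. Its fold ranked 132 from the lowest of the 1248 names and 8 from the lowest of the 84 known names past the filter. The median log2 fold was 0 over all names and 0.04 over the known ones.

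For the miR828 strand the normalized reads were 12 at 0 h and 55 at 24 h, a fold of 4.58 (2.56 to 9.26, log2 fold 2.20). It passed the threshold on the higher side, as did 6.25% of all names and 10 of the 84 known names. Its whole interval lay beyond 2-fold, as for 0.721% of all names. Only 3 of the 84 known names had such an interval, the other two being vvi-miR3627-5p_L-1_1ss16CT and mdm-miR395a. From the highest, the fold ranked 11 of the 1248 names and the second, after that of miR3627, of the known names. The rounding of the normalized reads matters at such low counts: taken from the raw reads and the factors of the libraries, 0.917 and 0.846, the fold was 4.69.

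**Figure D3:**
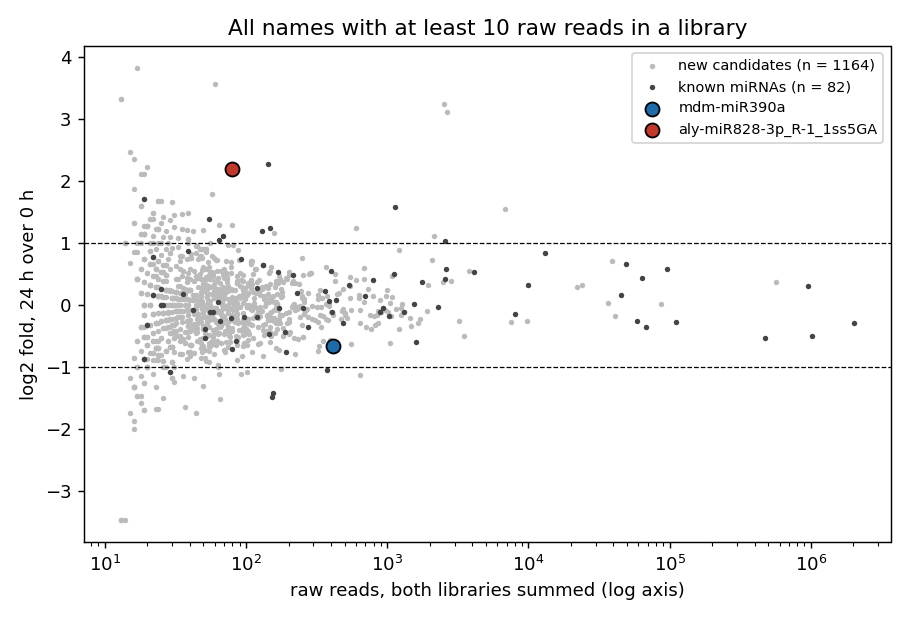
The log2 fold (24 h over 0 h, authors' normalized reads) is plotted against the summed raw reads of both libraries on a log axis, 1 point for each of the 1248 names past the filter, with dashed lines at the 2-fold threshold. The miR828 strand lies at 2.20, above the line, and mdm-miR390a at -0.66, between the lines, while the spread of all names widens to the left, where reads are few.

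The ratio between the 2 strands within a library does not depend on how the libraries are scaled. At 0 h there were 18.9 reads of miR390 for each read of the miR828 strand (10.9 to 36.0), and at 24 h there were 2.55 (1.90 to 3.44). The miR828 strand made up 5.02% of the reads of both at 0 h (2.70 to 8.43%) and 28.2% at 24 h (22.5 to 34.4%). The conditional estimate of the ratio at 0 h over that at 24 h was 7.41 (3.89 to 15.1). These intervals compare the 2 libraries and not the storage times, for which there is 1 library each.

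The known names with folds most like that of miR390, by the difference of the log2 folds over the 2 libraries, were osa-miR156h-3p_2ss9CT14T-, pde-MIR1310-p5_1ss16TC and aly-miR169k-3p_L+1, at 0.614, 0.663 and 0.667. Of these, aly-miR169k-3p_L+1 had an interval that included equal values (0.428 to 1.06). The nearest to the miR828 strand were vvi-miR3627-5p_L-1_1ss16CT at 4.81 (3.04 to 7.82), csi-miR479_1ss12TG at 3.25 (1.10 to 14.3) and mdm-miR395a at 2.97 (2.58 to 3.41). With 2 libraries such likeness rests on a single number for each name.

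Known names of similar depth are given beside each member. Those closest to the 414 summed reads of mdm-miR390a were ptc-miR169t_L+1R+1_1ss8AG with 404, mdm-miR396e with 398 and csi-miR169_L+1R-1_1ss20CT with 435, at folds of 0.924 (0.756 to 1.13), 1.46 (1.19 to 1.80) and 1.05 (0.870 to 1.28). Those closest to the 79 summed reads of aly-miR828-3p_R-1_1ss5GA were osa-miR156h-3p_2ss9CT14T- with 80, mdm-miR399e with 78 and aly-miR169k-3p_L+1 with 85, at folds of 0.614 (0.381 to 0.983), 0.865 (0.548 to 1.40) and 0.667 (0.428 to 1.06). All 3 names at the depth of miR828 lay below equal values, and its interval did not overlap with theirs. Around miR390, its interval overlapped only with that of ptc-miR169t_L+1R+1_1ss8AG.

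Other miRNAs reach auxin response factors directly, without tasiRNAs: miR160, which targets ARF10, ARF16 and ARF17 in Arabidopsis, and miR167, which targets ARF6 and ARF8. Past the 2-fold threshold, 6.25% of all names were higher and 3.69% lower, and of the 84 known names 10 and 4. Of the 10 names of miR160 and miR167, all past the filter, 1 was higher and 2 were lower. Of these 10, 7 lay above equal values and 3 below, with a median log2 fold of 0.30, against 0 over all names. All 3 names past the threshold are named for the 3p arm: mdm-MIR160a-p3_1ss7AG at 2.29 (1.55 to 3.46), tcc-MIR167a-p3_1ss2TC at 0.471 (0.202 to 1.10) and zma-MIR167j-p3_1ss14CT at 0.356 (0.248 to 0.518). The folds of the latter pair were below that of miR390. A further name of the 3p arm, ptc-miR160e-3p, was within 2-fold at 1.10 (0.946 to 1.28). Its interval included equal values, as did that of tcc-MIR167a-p3_1ss2TC. The guide strands mdm-miR160a and mdm-miR160e were at 1.56 (1.07 to 2.22). They have the same sequence and the same reads but count as 2 of the 10 names. The abundant guide mdm-miR167b_R+1_1ss21AC was at 0.782 (0.770 to 0.794), and mdm-miR167c and mdm-miR167g_1ss21AG were at 1.12 (1.10 to 1.14) and 1.35 (1.33 to 1.37). A further miR167 guide, mdm-miR167b_R+1_1ss21AG, was at 1.41 (1.25 to 1.59). Of these guides only mdm-miR167b_R+1_1ss21AC lay below equal values, and the fold of miR390 was below each of them.

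Starters of phased siRNAs from other transcripts in other plants were looked for as 10 families, of which 4 had a listed name. The disease resistance (NBS-LRR) regulators had 2 values past the 2-fold threshold in opposite directions, gso-miR2109_R+1_1ss14GA at 2.04 (1.88 to 2.22) and mtr-MIR1510a-p3_1ss5AT at 0.373 (0.259 to 0.534). In hbr-MIR2118-p3_1ss1GT, of the same role, the fold was 1.13 (0.568 to 2.38). The fourth, miR3627, belongs to the group of miR7122, which starts phased siRNAs from pentatricopeptide repeat genes, and its interval overlapped with that of the miR828 strand. In all, 2 of the 4 names were higher and 1 was lower past the threshold, with a median log2 fold of 0.61. Over all names, 6.25% were higher and 3.69% lower, with a median of 0. Of the 84 known names past the filter, 10 were higher and 4 lower.

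Of miRNAs that act on the silencing machinery, miR162 and miR168 were listed and miR403 was not. Over all names, 6.25% were higher and 3.69% lower past the 2-fold threshold, and the median log2 fold was 0. Of the 84 known names past the filter, 10 were higher and 4 lower. The 3 names of miR162 and miR168 were within 2-fold, with a median log2 fold of 0.42. They were mdm-miR168b, whose family targets AGO1, at a log2 fold of 0.58 (as a fold, 1.48 to 1.52), its partner strand ptc-miR168b-3p at a fold of 1.33 (1.23 to 1.44) and rco-miR162 at 1.16 (0.936 to 1.43). Of the other MYB regulators looked for, miR159, miR319 and miR858, 0 names were listed.

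**Figure D4:**
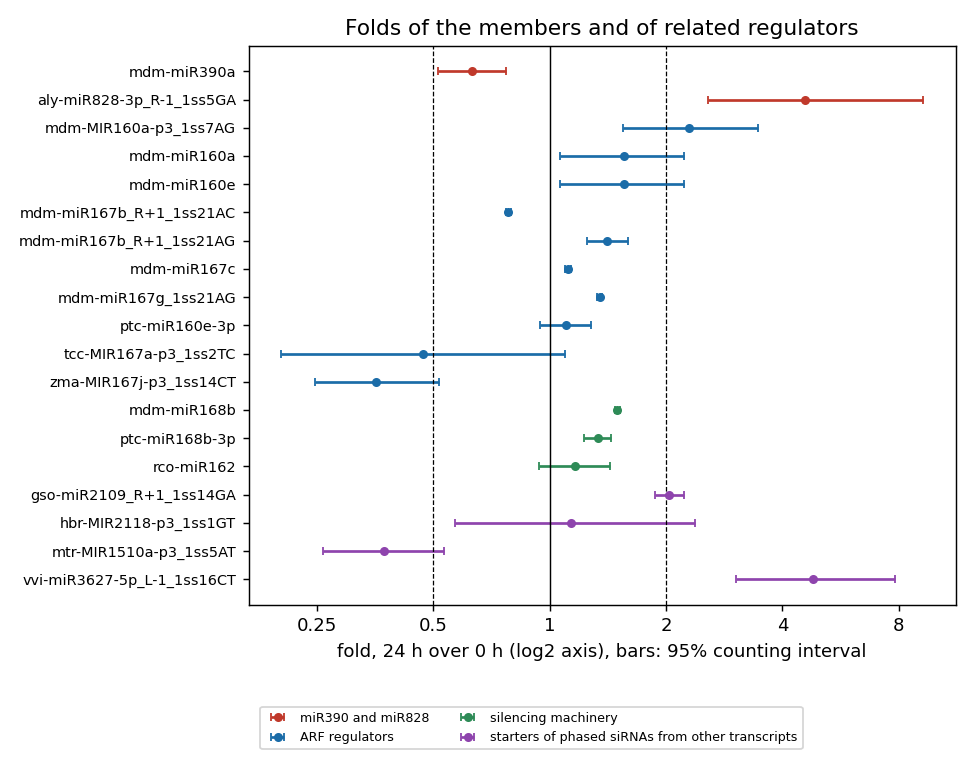
Folds of 24 h over 0 h on a log2 axis with 95% counting intervals, 1 line for each name, for miR390 and miR828 and the lists of ARF regulators, of the silencing machinery and of other starters of phased siRNAs, with dashed lines at 2-fold. The bar of mdm-miR390a (0.515 to 0.770) lies wholly left of equal values and those of the miR828 strand (2.56 to 9.26) and of miR3627 (3.04 to 7.82) lie wholly right of the 2-fold line.

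In the degradome, neither miR390 nor miR828 had a listed target. Of its 152 entries for 103 genes, 0 belonged to them, while 19 of the 31 known families had at least 1 entry. Of the 20 families with summed reads at or above those of miR390, which include miR390, 14 had an entry, and of the 9 below it down to and including miR828, 4 had one. The list holds only sites that passed the authors' procedure, with alignment scores of at most 4, on the gene set of Fragaria vesca, and whether TAS transcripts are in that set was not examined. An absent entry therefore does not show that these miRNAs cut no transcript in the fruit.

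Genes of the tasiRNA pathways were also looked for by their annotation among the targets of all miRNAs. Auxin response factors had 5 entries for 3 genes. They were gene16844-v1.0-hybrid and gene09733-v1.0-hybrid, both annotated as auxin response factor 16 and listed for mdm-miR160a and mdm-miR160e, and gene30394-v1.0-hybrid, annotated as auxin response factor 8 and listed for mdm-miR167b_R+1_1ss21AC. These are targets of the direct route, and neither ARF3 nor ARF4 was among the annotations. The word Myb stood in 2 entries for 1 gene, gene23708-v1.0-hybrid, annotated as Target of Myb protein 1 and listed with 1 degradome read for each of 2 new candidates. That annotation names a protein of membrane trafficking and not a MYB transcription factor. No entry was annotated as an Argonaute, an RNA-dependent RNA polymerase, a Dicer or SGS3.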

How the data were processed

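For the raw counts of the miRNAs, the authors ran ACGT101-miR 4.2: adaptors, low-quality reads and sequences of mRNA, Rfam and repeats were removed, lengths of 15 to 32 nt were kept and mapped to miRBase 19.0 and the Fragaria vesca genome 1.0. The normalized scores, as deposited, are reads that the authors scaled by 1 factor per library, given as whole numbers, by a formula not given in the sources used here. Each lies within 2 reads of the scaled raw count. In the degradome, the alignment score, the category, the P-value and the signal (reads at the cleavage site) were deposited by the authors, from CleaveLand 3.0 and ACGT301-DGE 1.0.

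A name with several precursors was counted once, which gave 1310 names from 1431 entries. Folds are ratios of the authors' normalized reads, and a value of 0 was set to a floor of 3 raw reads. Library factors were taken from names with at least 1000 raw reads. Intervals are Poisson for counts, Clopper-Pearson for shares and conditional binomial for folds, and they cover counting error only, since PCR reads without molecular identifiers are not independent molecules. The members, the lists and the rule for named miRNAs (the members, the lists, and the 3 known names nearest in fold and in summed reads) were chosen with earlier results of these data known. The families next in rank and the nearest known hairpins were added after their values were seen. Hairpins and positions come from the study's supplementary tables. The calls were tested on simulated Poisson counts at the depths of the libraries, with known folds set for some names. Variation between fruits and between libraries was not simulated, so that test covers counting error only. The alternatives were other scalings (none, mappable reads stated by the study, total of listed miRNAs, TMM of edgeR 4.0.16, size factors of DESeq2 1.42.0), a pseudocount of 1, other filters and an interval wholly beyond 2-fold. Python 3.11.15, scipy 1.17.1, R 4.3.3 and RNAfold 2.7.2 were used.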

Additional observations from a re-analysis of the deposited data

How the results depend on the processing

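Under all scalings and the pseudocount, the fold of mdm-miR390a stayed between 0.631 and 0.685. That of the miR828 strand stayed between 4.31 and 5.09. Each remained within its counting interval, and neither changed its side of the 2-fold threshold. The filters decide only which names are kept and cannot change a fold. The lowest value for miR828 came with a pseudocount of 1. Taking the folds from unrounded reads, an alternative chosen after seeing the data, gave 0.630 and 4.69. Without scaling, or with the listed total as the scale, the median log2 fold of all names moved from 0 to 0.11, and the calls of 78 higher and 46 lower became 96 and 35 or 109 and 35. Of names that reached 50 raw reads, 14 were higher and 7 lower, and with the interval wholly beyond 2-fold 9 and 0. From normalized reads the ratio of miR390 to miR828 was 18.8 at 0 h and 2.58 at 24 h. The degradome entries of both families were 0 in the full list, so a limit on P could not change that. No paired analysis was possible because each storage time has 1 library. With 13 reads of miR828 at 0 h, the counting interval of its fold runs from 2.56 to 9.26.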
